A study of Mus musculus with 8 samples.

Results

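*Ednrb*, *Erbb4* and *Kcna1* are 2 receptor genes and 1 channel gene whose RNA was lower in frontonasal prominences, the tissue that forms the nose and snout, of *MommeD43* embryos than of wild-type embryos. SMCHD1 levels at these 3 genes were examined in neural stem cells (NSCs), with every listed region taken that shared at least 1 base with the span of a gene, and this gave 5 of 2840 regions. Each region was made of a published SMCHD1 peak and the 5000 bp on either side of it, so the list holds places where SMCHD1 had been found, and it leaves most of *Ednrb* and *Erbb4*, but no part of *Kcna1*, without a value. GFP ChIP-seq had been performed in 3 wild-type and 3 *MommeD43* primary female NSC lines of the C57BL/6J strain, grown from cortices of E14.5 embryos and cultured for under 10 passages. Both genotypes were homozygous for a fusion of GFP to endogenous SMCHD1, and the *MommeD43* lines also carried the *MommeD43* point mutation of *Smchd1* on both alleles, made by genome editing. The deposited values are log2 normalised read counts with the lines of a genotype merged into 1 value, so the spread among lines is not known and genotypes could not be compared with a test. The whole cell extract libraries, 1 for each genotype, were not analysed here. ChIP-seq holds no expression values, so the identity of the NSCs could not be checked with markers. The paper states that the wild-type data had been published before. The labels do not say whether both genotypes were processed together, so a batch, if there was one, cannot be told apart from genotype. The RNA direction comes from another tissue at an earlier embryonic stage, from 2 pairs of stage-matched embryos of another strain, FVB/NJ. The mutant embryos were homozygous for the chemically induced allele. The RNA columns name the *MommeD43* embryos as male and the wild-type embryos as female. Sex and genotype thus cannot be told apart there.

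SMCHD1 is a non-canonical member of the SMC protein family that takes part in silencing of the inactive X chromosome, *Hox* genes and imprinted clusters. EDNRB is a G protein-coupled receptor for endothelins that neural crest cells need to form pigment cells and enteric neurons, and ERBB4 is a receptor tyrosine kinase bound by neuregulins. KCNA1 is a pore-forming subunit of Shaker-type voltage-gated potassium channels, which limit the excitability of neurons.

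The peaks at these genes differed in base composition, and their sequences are shown for that reason, on the minus strand of GRCm38.p6, which is the coding strand of all 3 genes. Capitals mark CpG dinucleotides, the sites of DNA methylation. Peaks of 300 bp are shown whole and peaks of 450 bp by their central 300 bases. The first sequence is the *Ednrb* peak at chr14:103834201-103834500. It is followed by the *Erbb4* peak in intron 5, at chr1:68364526-68364825, and the *Erbb4* peak in intron 1, at chr1:69023176-69023475. The *Kcna1* sequences are the peak in the coding exon, at chr6:126642751-126643050, and the peak at the 5′ end, at chr6:126645826-126646125.
Ednrb intron: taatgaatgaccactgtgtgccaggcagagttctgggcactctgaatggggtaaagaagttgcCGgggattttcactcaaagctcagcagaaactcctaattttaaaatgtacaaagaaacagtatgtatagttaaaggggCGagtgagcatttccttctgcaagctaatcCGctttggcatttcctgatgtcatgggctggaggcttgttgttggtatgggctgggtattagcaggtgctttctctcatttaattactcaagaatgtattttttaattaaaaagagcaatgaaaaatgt
Erbb4 intron 5: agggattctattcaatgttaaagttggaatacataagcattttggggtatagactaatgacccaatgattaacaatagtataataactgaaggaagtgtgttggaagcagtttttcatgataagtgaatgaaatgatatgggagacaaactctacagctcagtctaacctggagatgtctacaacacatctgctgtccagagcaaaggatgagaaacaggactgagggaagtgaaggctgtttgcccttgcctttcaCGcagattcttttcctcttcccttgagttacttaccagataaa
Erbb4 intron 1: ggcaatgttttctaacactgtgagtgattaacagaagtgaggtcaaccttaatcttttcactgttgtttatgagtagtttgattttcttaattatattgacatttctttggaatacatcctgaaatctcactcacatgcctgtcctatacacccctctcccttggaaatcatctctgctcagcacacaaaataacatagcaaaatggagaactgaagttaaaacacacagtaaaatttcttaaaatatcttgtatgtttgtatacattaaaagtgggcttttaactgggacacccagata
Kcna1 coding exon: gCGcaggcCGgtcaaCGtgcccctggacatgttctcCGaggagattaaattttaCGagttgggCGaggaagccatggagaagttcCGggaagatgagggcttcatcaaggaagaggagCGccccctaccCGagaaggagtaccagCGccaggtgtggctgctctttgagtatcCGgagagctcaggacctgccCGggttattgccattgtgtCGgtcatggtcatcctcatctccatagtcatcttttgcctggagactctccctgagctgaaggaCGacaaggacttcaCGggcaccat
Kcna1 5′ end: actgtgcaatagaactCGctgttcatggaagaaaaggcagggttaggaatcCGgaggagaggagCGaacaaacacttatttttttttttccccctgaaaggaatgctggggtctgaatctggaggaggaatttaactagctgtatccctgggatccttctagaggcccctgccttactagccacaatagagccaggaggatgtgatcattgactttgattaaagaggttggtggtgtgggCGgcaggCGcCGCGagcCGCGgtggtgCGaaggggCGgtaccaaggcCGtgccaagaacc
The *Ednrb* sequence holds 3 CpG and the *Erbb4* sequences hold 1 and 0. The *Kcna1* sequences hold 15 in the coding exon and 12 at the 5′ end. Over whole peaks, GC content was 40.7% at *Ednrb*, 36.2% in intron 5 and 34.4% in intron 1 of *Erbb4*, and 56.3% and 55.3% at *Kcna1*, beside a median of 41.0% over all 2840 peaks. CpG observed over expected was 0.634 in the coding exon and 0.543 at the 5′ end of *Kcna1*, above 86.2% and 81.0% of all listed peaks. At *Ednrb* the ratio was 0.253, near the median of 0.223, and in *Erbb4* it was 0.0682 in intron 5 and 0.0755 in intron 1, with 15.8% of peaks below the latter. *Kcna1* thus held the CpG-rich peaks of the 5, *Erbb4* the CpG-poor ones, and *Ednrb* lay between them. Repeats masked in the assembly took 0% and 12% of the *Kcna1* peaks, 29.7% of the *Ednrb* peak and 21.6% and 9.56% of the *Erbb4* peaks. All 31-base words of each of these peaks occurred once in the assembly, a share of 100%. Over the whole counted windows that share was 96.6% at *Ednrb*, 91.8% in intron 5 and 94.2% in intron 1 of *Erbb4*, and 99.8% and 97.8% at the coding exon and 5′ end of *Kcna1*. It was thus lowest at *Erbb4*, which also had the lowest levels given below, and its part in those levels was not tested.

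**Figure D1:**
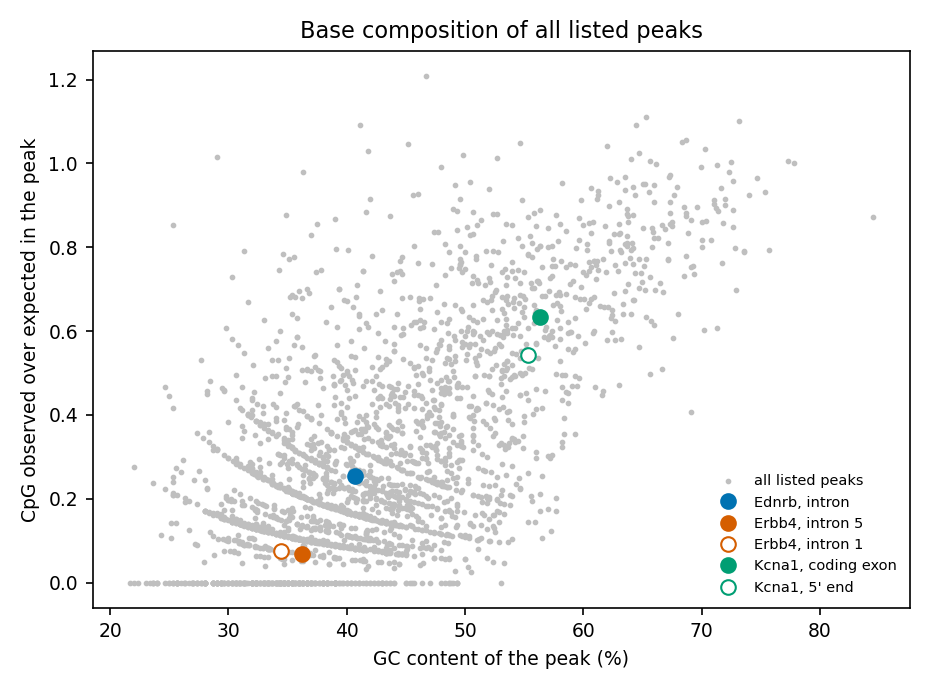
GC content (horizontal axis, %) and CpG observed over expected (vertical axis, a ratio) of each of the 2840 listed peaks, in grey, with the 5 peaks at *Ednrb*, *Erbb4* and *Kcna1* in colour. The *Kcna1* peaks, at 56.3% and 55.3% GC, lie among the CpG-rich peaks, and the *Erbb4* peaks, at 36.2% and 34.4% GC, lie near the lower edge.

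The place of the peaks in the genes differed as well. *Ednrb* (ENSMUSG00000022122, chr14:103814625-103844402, minus strand) had 1 listed region. Its peak lay wholly in the intron after the first coding exon, which is intron 2 of 1 annotated transcript and intron 1 of the other two. The middle of the peak was 10.1 kb downstream of the gene start, and the counted window, chr14:103829201-103839500, ended 4902 bp short of that start. The window covered 0 bases of any *Ednrb* exon, so its value says nothing of the promoter or the coding sequence.

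*Erbb4* (ENSMUSG00000062209, chr1:68032186-69108059, minus strand) is 1076 kb long and had 2 listed regions. The peak in intron 1, chr1:69023101-69023550, lay 84.7 kb downstream of the gene start, and the peak in intron 5, chr1:68364451-68364900, lay 743 kb downstream. The windows, chr1:69018101-69028550 and chr1:68359451-68369900, covered 0 bases of any *Erbb4* exon. Of its 5 annotated transcripts, the 3 with a coding sequence span both peaks. Neither window reached a transcript start, and the promoter of *Erbb4* has no value in these data.

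*Kcna1* (ENSMUSG00000047976, chr6:126640397-126646384, minus strand) is 5.99 kb long and also had 2 listed regions. All 300 bases of the peak at chr6:126642751-126643050 lay in the coding sequence, which is in a single exon. The peak at chr6:126645751-126646200 lay in a transcript of the gene with no coding sequence, and 275 of its bases fell in an exon of it. The RefSeq start of *Kcna1* lay inside this peak, 50 bp from its downstream edge, and the sequence shown above runs from 25 to 324 bp upstream of that start. Both windows, chr6:126637751-126648050 and chr6:126640751-126651200, covered the whole coding sequence of 1485 bases and every annotated start of the gene. They shared 7300 bp, which is 70.9% and 69.9% of their lengths, so they are not independent measurements, and the share of reads in common is not known.

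**Figure D2:**
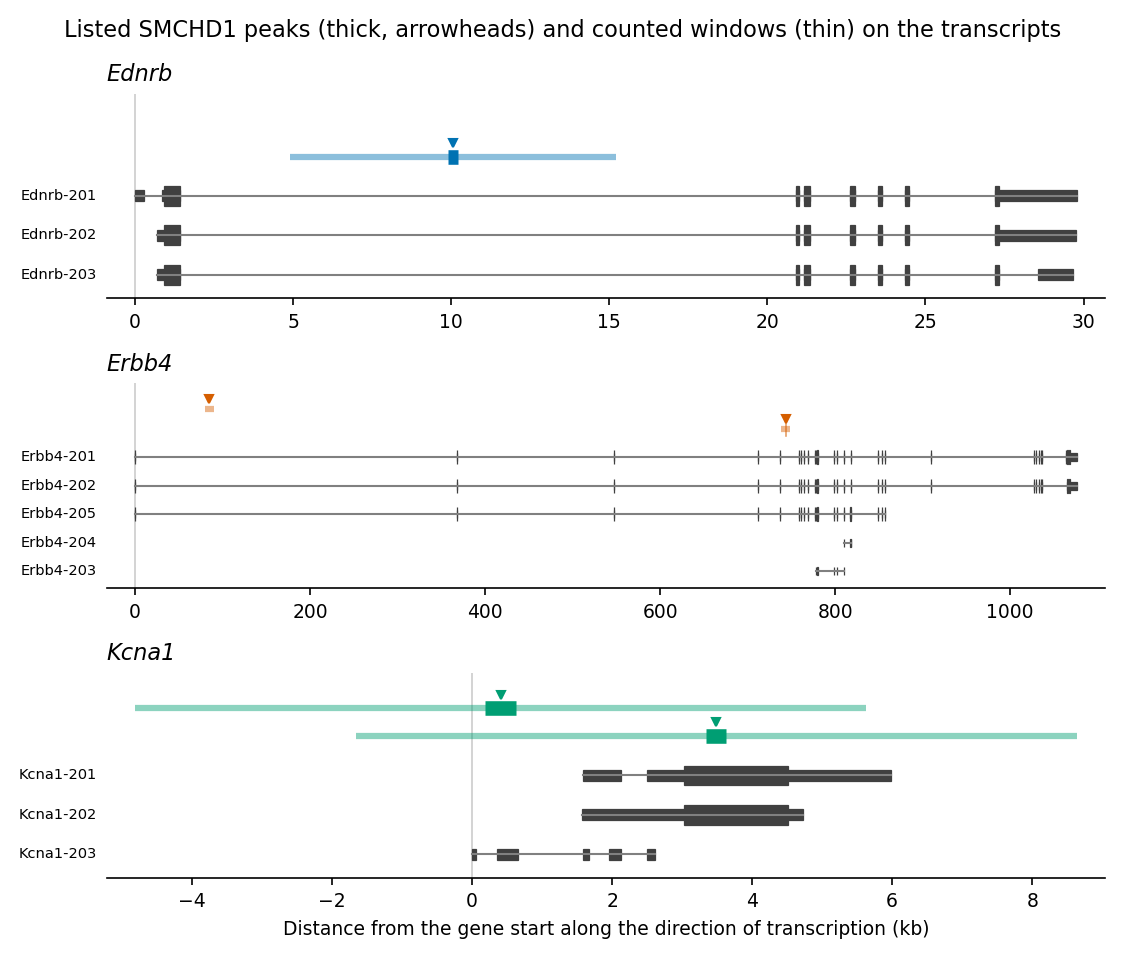
Transcripts of *Ednrb*, *Erbb4* and *Kcna1* in GENCODE M21, drawn from the gene start in the direction of transcription (horizontal axis, kb, a different scale for each gene), with exons as boxes and coding sequence as taller boxes. Thick coloured bars under arrowheads are the listed peaks and thin bars the counted windows, and the *Kcna1* windows alone reach a gene start.

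Among all 2840 peaks, 283 (9.96%) met coding sequence of a protein-coding gene, 244 (8.59%) another exon, 776 (27.3%) an intron alone and 1537 (54.1%) lay outside protein-coding genes. The windows around those 4 groups of peaks had median wild-type levels of 8.78, 8.81, 7.68 and 7.34 on the log2 scale. The intronic peaks of *Ednrb* and *Erbb4* thus fell in a class with lower levels than the class of either *Kcna1* peak. Within 1 kb of the start of a protein-coding gene lay 424 peaks (14.9%), among them the *Kcna1* peak at the 5′ end and no other of the 5.

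The number of regions has to be read against gene length. Of 230 protein-coding genes of 500 kb or more, 108 (47.0%) met at least 1 listed region and 54 (23.5%) met 2 or more, and of the 59 genes over 1000 kb, 24 (40.7%) met 2 or more. The 2 regions of *Erbb4* were thus a common count for a gene of its length. Of 7774 genes under 10 kb, the class of *Kcna1*, 257 (3.31%) met at least 1 region and 85 (1.09%) met 2 or more. In the class of *Ednrb*, from 10 to 50 kb, 314 of 9157 genes (3.43%) met at least 1. All 3 genes were chosen because they met a region, so these shares describe the classes and test nothing.

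**Figure D3:**
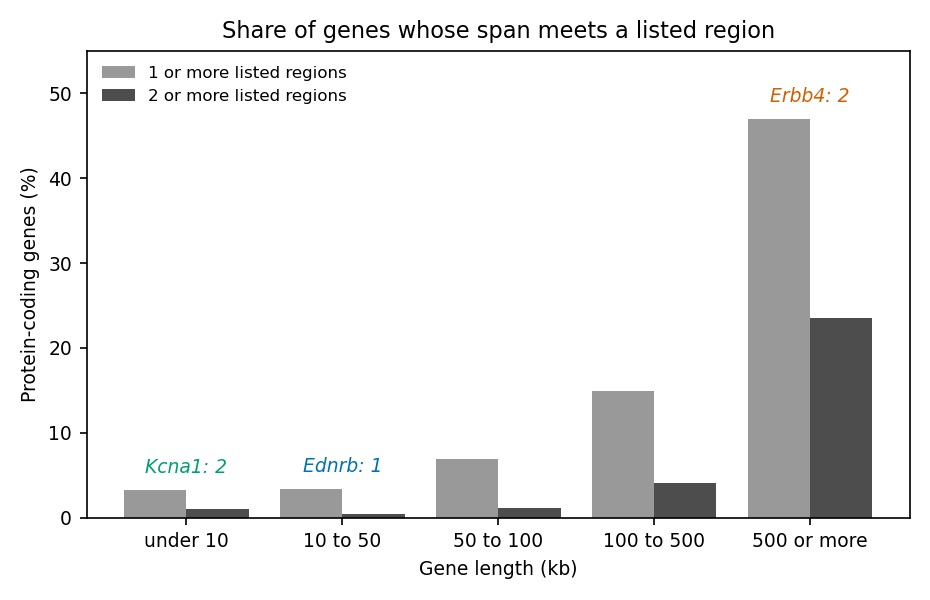
Share of protein-coding genes (vertical axis, %) that met at least 1 listed region (light bars) or 2 or more (dark bars), by gene length (horizontal axis, kb). The share with at least 1 region was 3.31% for genes under 10 kb and 47.0% for genes of 500 kb or more, and each gene name stands over its length class with its number of regions.

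In wild-type NSCs, the level on the log2 scale was 8.17 at *Ednrb*, above 59.3% of all listed regions. It was 8.13 at the *Kcna1* coding exon and 8.22 at the *Kcna1* 5′ end, above 58.2% and 60.5% of regions. *Erbb4* was lower, with 7.12 in intron 1 and 6.79 in intron 5, above 34.6% and 27.3% of regions. The median wild-type level over all regions was 7.76, so *Ednrb* and *Kcna1* lay somewhat above the middle of the list and *Erbb4* in its lower part. The level of a window, of which the peak is 2.91% or 4.31% of the bases, can also be ranked among windows whose peaks are of the same class. On this measure the *Ednrb* window was above 64.0% of those with an intronic peak in wild-type level, while the *Kcna1* windows were above 30.7% of those with a peak in a coding exon and 32% of those with a peak in another exon. Intron 1 and intron 5 of *Erbb4* were above 32.5% and 22.8% of those with an intronic peak. Within its class, *Erbb4* intron 1 thus stood at about the rank of the *Kcna1* windows, both of which span the coding exon and the 5′ end.

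In *MommeD43* NSCs, the level was 8.14 at *Ednrb*, above 56.3% of regions, on the same log2 scale. *Kcna1* had 8.34 at the coding exon and 8.37 at the 5′ end, above 60.8% and 61.8% of regions. *Erbb4* had 7.06 in intron 1 and 6.67 in intron 5, above 33.3% and 25.2% of regions. The median *MommeD43* level over all regions was 7.83. In both genotypes *Erbb4* was thus the lowest of the 3 genes, with intron 5 below intron 1.

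The order was examined per kb of window, with an interval for counting error alone. The reads behind each value, recovered from the minimum of each column taken as 0 reads, were 210 per library at *Ednrb* in wild-type and 176 in *MommeD43*. The *Kcna1* windows held 204 and 217 reads in wild-type and 201 and 207 in *MommeD43*, and the *Erbb4* windows held 102 and 80.5 in wild-type and 83.0 and 63.3 in *MommeD43*, so *Erbb4* was measured least precisely. In wild-type, the *Kcna1* 5′ end, *Ednrb* and the *Kcna1* coding exon had 4.84, 4.81 and 4.76 per kb on the log2 scale, and neighbours in that order were less than their counting error apart. The step from the *Kcna1* coding exon down to *Erbb4* intron 1 was 1.02 (95% counting interval 0.83 to 1.22), and the step from there to intron 5 was 0.34 (0.09 to 0.58). In *MommeD43*, *Ednrb* was below both *Kcna1* regions, 0.19 under the *Kcna1* coding exon (0.02 to 0.36), and the steps to and within *Erbb4* were 1.11 (0.89 to 1.32) and 0.39 (0.12 to 0.66). These intervals cover counting error only and leave out the spread between lines.

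The difference between genotypes, *MommeD43* minus wild-type on the log2 scale, was -0.03 at *Ednrb* (95% counting interval -0.19 to 0.14). At *Erbb4* it was -0.07 in intron 1 (-0.31 to 0.17) and -0.12 in intron 5 (-0.40 to 0.15). At *Kcna1* it was 0.21 at the coding exon (0.05 to 0.37) and 0.15 at the 5′ end (-0.01 to 0.31). The values of *Ednrb* and *Erbb4* were thus within counting error of 0, and those of *Kcna1* were above 0, by more than counting error at the coding exon alone. The *Kcna1* windows share most of their bases, so these values do not place a difference within the gene. Higher values in *MommeD43* were the rule in the list, with 1874 of 2840 regions (66.0%) higher, against 2 of the 5, and a median difference of 0.07. A 95% counting interval without 0 was found at 899 regions (31.7%), against 1 of the 5, and a difference over 0.5 in either direction at 48 regions (1.69%), against 0 of the 5. The *Kcna1* coding exon was above 81.8% of all listed regions in its difference, the 5′ end above 69.2%, *Ednrb* above 28.9%, and intron 1 and intron 5 of *Erbb4* above 21% and 13.8%. All 5 values therefore lay well inside the distribution over the list.

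Fits over the list gave the difference found at regions of like composition or signal, with GC content taken over the whole window, 49.6% at the *Kcna1* coding exon and 36.0% at intron 5 of *Erbb4*. The locally weighted fit on GC content had a value of 0.14 at the *Kcna1* coding exon and 0.01 at intron 5 of *Erbb4*, and the fit on signal level had 0.08 and -0.01. Beyond the fit on GC content, the difference at the *Kcna1* coding exon was 0.06 (-0.10 to 0.23) and at the 5′ end 0.00478. With the fit made on signal level instead, the coding exon had 0.13 (-0.03 to 0.29), and with the median difference of the list subtracted it also had 0.13 (-0.03 to 0.30). The coding exon of *Kcna1* therefore lost its place beyond counting error under each of the 3 adjustments. At the 5′ end of *Kcna1* the difference was 0.07 beyond the fit on level and 0.08 with the median subtracted. *Ednrb* had -0.10 after the fit on level and -0.03 after the fit on GC content, and the *Erbb4* values stayed between -0.20 and -0.07 under all 3.

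**Figure D4:**
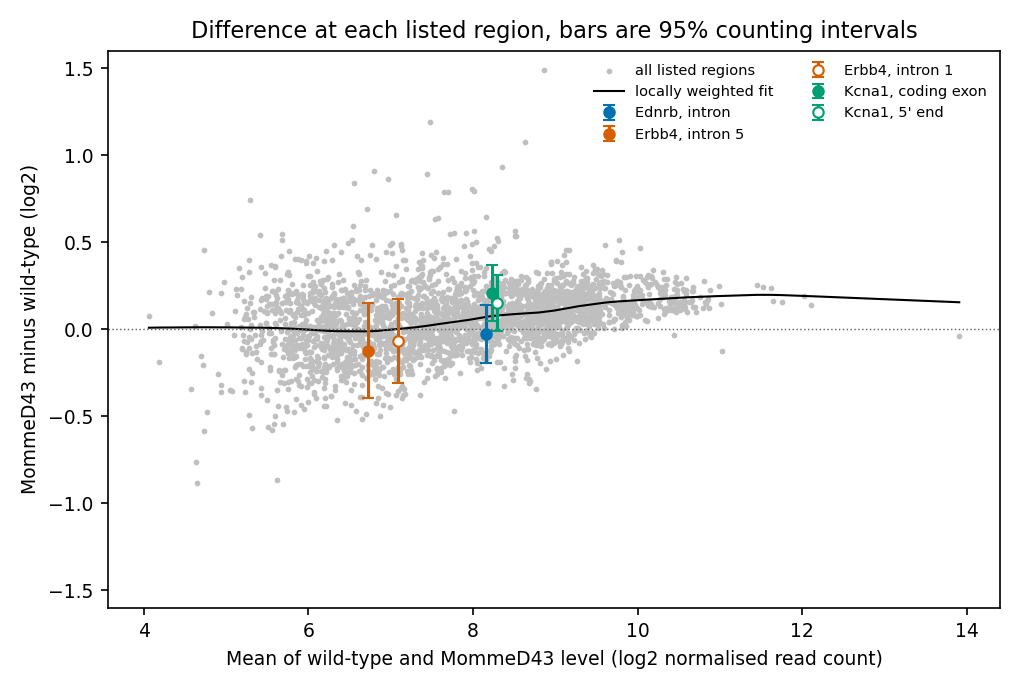
Difference *MommeD43* minus wild-type (vertical axis, log2) against the mean of both levels (horizontal axis, log2 normalised read count) for the 2824 regions with a wild-type level above 4, in grey, with the locally weighted fit as a line. The 5 regions at *Ednrb*, *Erbb4* and *Kcna1* are in colour with 95% counting intervals as bars, and the interval of the *Kcna1* coding exon, 0.05 to 0.37, is the only one of the 5 without 0.

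The SMCHD1 differences are set here beside the direction of RNA. RNA of *Ednrb* was lower in *MommeD43* frontonasal prominences, and SMCHD1 in NSCs differed by -0.03. RNA of *Erbb4* was lower too, with SMCHD1 differences of -0.07 and -0.12. RNA of *Kcna1* was lower, with SMCHD1 differences of 0.21 and 0.15. The *Kcna1* values became 0.06 and 0.00478 beyond the fit on GC content. They were 0.13 and 0.07 beyond the fit on signal level, and 0.13 and 0.08 with the median difference of the list subtracted. With lower RNA at all 3 genes, no SMCHD1 difference was thus beyond counting error both before and after adjustment. Of the 56 genes changed in *MommeD43* frontonasal prominences, 53 were lower, so the direction shared by these 3 was that of nearly all of them. RNA in NSCs was not used here.

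The 3 genes were among 20 genes of the frontonasal list that met a listed region. The 17 other genes met 40 regions, of which 36 (90.0%) were higher in *MommeD43*, beside 66.0% of all regions. A 95% counting interval without 0 was found at 26 of the 40 (65%), beside 31.7% of all regions. The 40 regions had median levels of 9.10 in wild-type and 9.25 in *MommeD43* and a median difference of 0.15. Beyond the fit on signal level the median difference of the 40 was 0.04, with 22 of the 40 above 0. Beyond the fit on GC content it was 0.03, with 24 of the 40 above 0. Of all 2824 regions in the fits, 1385 were above 0 beyond the fit on level and 1419 beyond the fit on GC content. Among the 40, intervals without 0 then numbered 11 beyond the fit on level and 12 beyond the fit on GC content. Over all 2824 regions in the fits they numbered 570 and 583. Among the 5 regions described here the median levels were 8.13 and 8.14 and the median difference -0.03, or -0.07 and -0.03 beyond the fits on level and GC content. Many of the 40 regions overlap each other and share reads, and wild-type levels among them ran from 8.13 to 10.41, so both *Erbb4* regions were below every one of them. With each gene represented by its strongest wild-type region, and in wild-type and *MommeD43* level together, the 2 other genes nearest to *Ednrb*, over 2 columns and 17 genes, were *Olig3* (distance 0.16 on the log2 scale) and *Bhlhe22* (0.22), both genes of basic helix-loop-helix factors. *Olig3* had 8.13 in wild-type and 8.29 in *MommeD43*, and *Bhlhe22* had 8.34 and 8.28. The weaker region of *Bhlhe22*, which this measure leaves out, had 8.25 and 8.18, closer to *Ednrb* than either, and the weaker region of *Nkx2-2os*, with 8.17 and 8.30, was also slightly closer than *Olig3*, so the neighbours of *Ednrb* depend on the region that stands for a gene. Nearest to *Kcna1* were *Nkx2-2os* (0.09), with 8.28 and 8.44, and *Olig3* (0.12). *Olig3* and *Bhlhe22* were also the nearest to *Erbb4*, but at distances of 1.59 and 1.73, so no gene of the list was close to it.

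**Figure D5:**
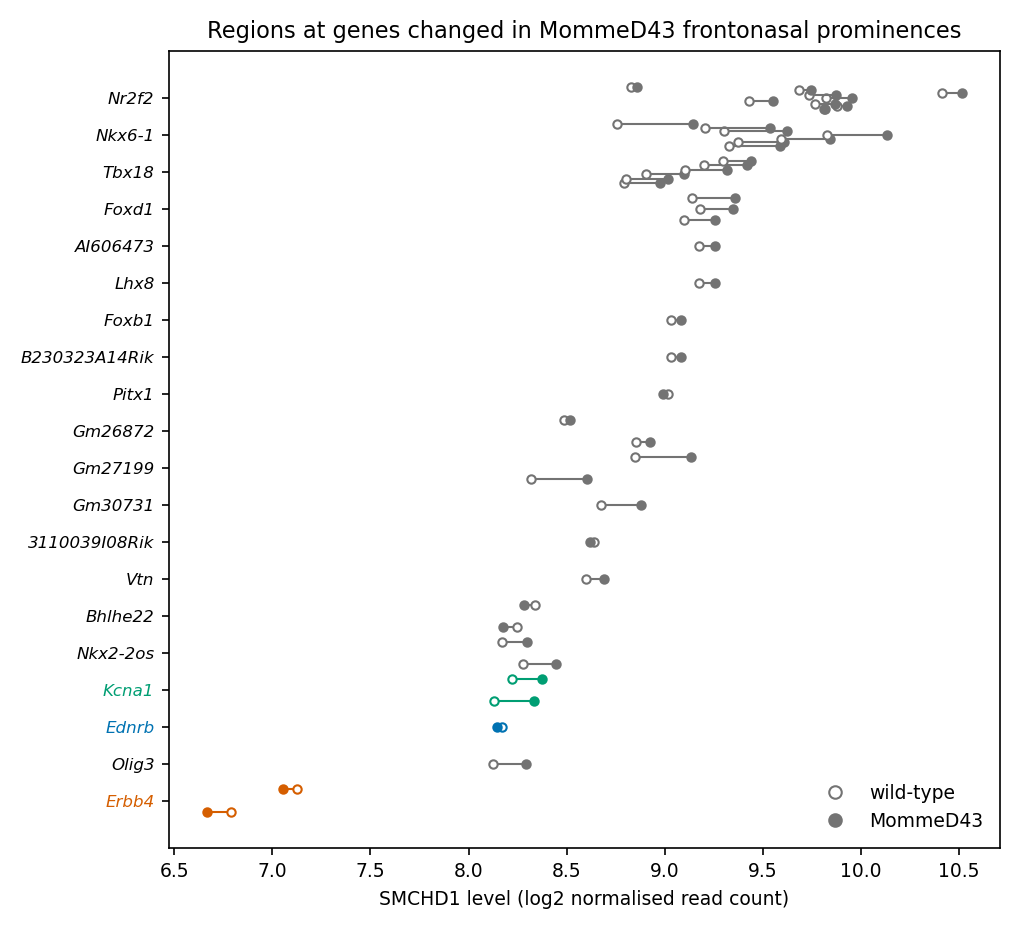
SMCHD1 level (horizontal axis, log2 normalised read count) in wild-type (open circles) and *MommeD43* (filled circles) at each listed region of the 20 genes of the frontonasal list, with 1 line for each region and genes ordered by their strongest wild-type region. The *Erbb4* regions, at 6.79 and 7.12 in wild-type, lie below all others, and 2 pairs of genes share a region.

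The genes around the 3 were mostly without listed regions. *Ednrb* lies between *Slain1*, 110 kb away with 0 regions, and *Pou4f1*, 617 kb away with 1 region. That region, the nearest listed one, had 8.96 in wild-type and 9.22 in *MommeD43*, a difference of 0.25. *Erbb4* lies between *Cps1* and *Ikzf2*, each with 0 regions, at 801 and 423 kb. Another listed region, with its peak at chr1:67936051-67936500 outside protein-coding genes, lay 418 kb from the intron 5 window and had 7.42 and 7.37. *Kcna1* lies between the related channel genes *Kcna5*, 105 kb away, and *Kcna6*, 61.9 kb away. Both had 0 regions, and the nearest listed region was 1891 kb away, so within this channel gene cluster *Kcna1* alone met the list.

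In a list of 11 genes of the endothelin system and of the neural crest lineage that uses EDNRB, 2 met a listed region, *Ednrb* and *Ece1*. The ligand genes *Edn1*, *Edn2* and *Edn3* and the other receptor gene, *Ednra*, had 0 regions. *Ece1*, which encodes an enzyme that cleaves endothelin precursors to their active form, had 8.70 in wild-type and 8.76 in *MommeD43*, a difference of 0.07 with a counting SD of 0.07. Its peak lay in an intron, 0.964 kb downstream of the gene start. *Sox10*, *Mitf* and *Kit*, the lineage genes of the list, had 0 regions.

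Among 15 genes of ErbB receptors and ligands, *Erbb4* and *Nrg1* met listed regions and the receptor genes *Egfr*, *Erbb2* and *Erbb3* met 0. *Nrg1* encodes a neuregulin, a ligand of ERBB4, and its 1 region had 7.80 in wild-type and 8.02 in *MommeD43*. The difference of 0.22 had a counting SD of 0.09 and an interval from 0.04 to 0.40. With the median of the list subtracted it was 0.14 (-0.04 to 0.33), and beyond the fits on signal level and GC content 0.17 (-0.01 to 0.35) and 0.14 (-0.04 to 0.32), so it was within counting error under all 3 adjustments. The *Nrg1* peak lay 875 kb downstream of the gene start and met coding sequence, and 2 of 18 annotated *Nrg1* transcripts start inside it. Its GC content of 67.6% and CpG ratio of 0.925 set it apart from the *Erbb4* peaks in composition, although both genes are over 1000 kb long.

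Among 20 potassium channel genes, limited to the *Kcna*, *Kcnb*, *Kcnc* and *Kcnd* families and the *Kcnab* genes of auxiliary subunits, *Kcna1*, *Kcnb2* and *Kcnd2* met listed regions, with 4 regions in all. *Kcnb2*, a gene of delayed rectifier channels, had 7.03 in wild-type and 6.94 in *MommeD43* at a peak over its gene start, a difference of -0.09 with a counting SD of 0.13. *Kcnd2*, a gene of rapidly inactivating A-type channels, had 7.65 and 7.53 at an intronic peak, a difference of -0.12 with a counting SD of 0.10. Of these 4 regions, only the window at the *Kcna1* coding exon had a difference beyond counting error, before the adjustments given above. The overlapping window at the *Kcna1* 5′ end, *Kcnb2* and *Kcnd2* were within it. In the 3 lists together, which were described and not tested, 7 of 46 genes (15.2%) met a region, among them the 3 chosen because they met one. Without those 3 it was 4 of 43 (9.30%), and over all protein-coding genes it was 1191 of 21938 (5.43%).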

How the data were processed

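SMCHD1-GFP was measured by anti-GFP ChIP-seq in 3 wild-type and 3 *MommeD43* NSC lines. By the methods and the submitters' processing notes, reads were trimmed with Trim Galore 0.4.4, mapped with Bowtie2 2.3.4.1 to GRCm38.p6, extended and counted in SeqMonk over published peaks with their flanks. The authors scaled these counts to library size, took log2 values, merged replicates and deposited 1 log2 column for each genotype. This scaling keeps differences between libraries in the share of reads in peaks.

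Regions were matched to genes by at least 1 shared base. Gene spans came from the list of genes changed in *MommeD43* frontonasal prominences and equalled those of GENCODE M21 for the 3 genes. In 2840 of 2840 regions the window was the peak with its 5000 bp flanks. Low values, where the 3 libraries' reads multiplied to under 10000, were checked to give whole products within 0.05 when 0 reads counted as 0.9 (27 of 27 in wild-type, 42 of 42 in *MommeD43*). The minimum of each column then gave the reads per library behind every value (medians of 158 and 142) and a counting SD, a lower bound of the error. Intervals span 1.96 counting SDs on each side. Total reads of each library are unknown. Local fits took a share of 0.3 of 2824 regions whose wild-type value was over 4. Base composition and unique 31-base words were computed on GRCm38.p6.

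Named genes are the 3 genes with all their regions, every gene of the related lists with a region, the nearest protein-coding gene on each side, and for each gene the 2 other frontonasal genes whose strongest region was nearest in both levels by Euclidean distance. Some other list genes are named as having 0 regions. The members and lists were chosen with earlier results of these data known. Software was Python 3.11.15 with Matplotlib 3.10.9, Numba 0.67.0, NumPy 2.4.6, pandas 2.3.3 and statsmodels 0.14.6, and functions were tested on simulated data.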

Additional observations from a re-analysis of the deposited data

How the results depend on the processing

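No paired analysis was possible because replicates had been merged into 1 value for each genotype before deposit, and for the same reason no line could be left out. The 15 alternative values of the 5 differences all stayed inside the counting interval of the difference as reported and kept its sign, and the interval at the *Kcna1* coding exon held 0 in each of its 3 alternatives. Of 30 alternative percentiles of the levels, 14 stayed inside their counting interval, among them every one taken per kb of region. Among the strongest regions of 2169 groups of overlapping regions, the share of regions below was 70.3% at *Ednrb*, 69.1% at the *Kcna1* coding exon, 71.6% at its 5′ end, 42.8% at *Erbb4* intron 1 and 34.2% at intron 5 in wild-type, and 67.4%, 72.3%, 73.4%, 41.5% and 31.7% in *MommeD43*. Among 2672 regions outside the *Hox* clusters it was 63.0%, 61.8% and 64.3% at *Ednrb*, the *Kcna1* coding exon and its 5′ end in wild-type and 59.9%, 64.6% and 65.6% in *MommeD43*. Both alternatives rank the same levels among fewer regions. Of 12 alternative counts of regions, 10 were as reported. When the window had to cover the gene start, *Ednrb* and *Erbb4* each had 0 regions and *Kcna1* had 2, since the windows of the receptor genes lie in introns. Depth limits *Erbb4* most, with 63.3 to 102 reads per library.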
